A study of Mus musculus with 22 samples.

Results

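Colonocytes move salt, water and the acids made by gut bacteria across the colonic wall, and 10 genes of this traffic were followed here through dextran sodium sulfate (DSS) colitis in mice with and without epithelial PPAR γ. They are the absorptive genes Slc26a3, Slc9a3, Scnn1a, Scnn1b, Scnn1g, Atp12a, Slc34a2 and Slc5a8 and the secretory genes Cftr and Slc12a2. They were chosen by symbol out of 18194 genes that had a probe set naming a single gene, and they carried 17 probe sets. Each gene is given by the probe set whose interquartile range over the 22 arrays was the largest. All mice carried PPAR γ fl/fl alleles. The strain background of the mice on the arrays, their age and their sex are not given in the sources used here. In VC+ mice a Cre recombinase driven by Villin removes PPAR γ from intestinal epithelial cells, while VC- mice have no Cre and keep it. Arrays were made at day 0, without DSS, and at days 2 and 7 of 2.5% DSS in the drinking water. There were 3, 5 and 4 arrays of VC+ mice and 3, 3 and 4 arrays of VC- mice at days 0, 2 and 7. The labels do not tell whether every array is its own mouse, so p-values measure the spread between these samples, which may be technical.

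In the healthy colon, surface cells take up sodium chloride by pairing a sodium/proton exchanger with a chloride/bicarbonate exchanger, and cells of the distal colon take up more sodium through the epithelial sodium channel. Crypt cells do the opposite: they load chloride through a basolateral cotransporter and release it into the lumen through Cftr, and water follows the salt. Loss of absorption is a known part of the diarrhea of colitis. PPAR γ, deleted in VC+ mice, is a nuclear receptor that binds DNA together with the retinoid X receptor at repeats of the motif AGGTCA.

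The promoters of Slc26a3, Cftr and Slc34a2 are shown because these were the genes called between day 7 and day 0, and because PPAR γ binds DNA directly. RefSeq promoters on GRCm38.p6, from 250 bases before to 50 bases after an annotated start, were held for 7 of the 10 genes, and Scnn1a, Atp12a and Slc12a2 were not among them. The windows lie at chr12:31437969-31438268 for Slc26a3, chr6:18170437-18170736 for Cftr and chr5:53049103-53049402 for Slc34a2, all on the + strand. The Slc26a3 window lies inside the annotated span of its gene, chr12:31433142-31473922, so its start is not the first base of the gene. The window of Slc9a3, not printed, likewise lies inside its gene. Capitals mark matches, on either strand and without overlap between motifs, to AGGTCA, to TGTTCT (a core of the steroid receptor site) or to TTTATG (a caudal-type homeobox site).
Slc26a3: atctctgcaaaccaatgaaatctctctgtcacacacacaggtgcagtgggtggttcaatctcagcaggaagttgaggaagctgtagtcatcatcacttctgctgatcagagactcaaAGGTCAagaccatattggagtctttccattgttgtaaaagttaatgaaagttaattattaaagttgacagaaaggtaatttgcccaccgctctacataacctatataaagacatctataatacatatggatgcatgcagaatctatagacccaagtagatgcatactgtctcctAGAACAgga
Cftr: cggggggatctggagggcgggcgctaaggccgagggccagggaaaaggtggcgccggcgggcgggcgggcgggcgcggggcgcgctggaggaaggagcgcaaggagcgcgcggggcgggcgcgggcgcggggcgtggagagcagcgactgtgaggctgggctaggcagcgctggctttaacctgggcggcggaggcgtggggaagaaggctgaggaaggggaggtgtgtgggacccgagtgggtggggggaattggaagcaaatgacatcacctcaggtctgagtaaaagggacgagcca
Slc34a2: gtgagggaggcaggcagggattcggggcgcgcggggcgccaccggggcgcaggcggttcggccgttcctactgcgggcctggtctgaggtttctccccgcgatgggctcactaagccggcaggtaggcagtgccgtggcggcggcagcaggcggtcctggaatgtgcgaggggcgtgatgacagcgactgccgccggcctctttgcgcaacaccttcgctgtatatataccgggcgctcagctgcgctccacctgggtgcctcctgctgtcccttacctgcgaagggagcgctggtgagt
Slc26a3 had AGGTCA on its + strand, beginning 133 bases before the start, and AGAACA, the reverse complement of TGTTCT, beginning 41 bases after it. Cftr and Slc34a2 held none of the 3 motifs in these windows. Of all 32851 promoters of the same length, 16.3% held AGGTCA, 19% TGTTCT and 11.9% TTTATG on either strand, so a match is a description of the letters only. Of the promoters not printed, that of Scnn1b held AGGTCA on the - strand, that of Scnn1g held TTTATG, and those of Slc9a3 and Slc5a8 held none.

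Values are log2 signals after GC-RMA, which corrects background and normalizes arrays together, and array medians lay between 3.41 and 3.55. One array stood apart. The mean of 14 epithelial genes, among them Vil1, Epcam and Krt20, was 8.74 on VC- day 7 replicate 2 and 11.97 to 12.58 on the other 21 arrays, and all 14 were lowest there. Its pancreas markers averaged 13.38. The trypsinogen Prss2 was 14.74 there, 13.77 on VC- day 0 replicate 3 and 11.20 on VC+ day 7 replicate 4, while the remaining 19 arrays had 3.27 to 4.20. Xist was above 8 on 6 arrays, none of them of day 7, where it was 2.08 or less. Day 7 and the property of the samples that Xist marks can thus not be fully told apart. With Xist above 8 as a covariate, no member was called in the comparisons between days where members were called without it. Pparg itself, measured in whole tissue, ranged over 8.501 to 8.83, 6.87 to 9.54 and 6.26 to 10.35 in VC+ mice and over 9.58 to 9.63, 9.87 to 10.96 and 7.39 to 9.82 in VC- mice at days 0, 2 and 7. The genotypes did not overlap at days 0 and 2 and overlapped at day 7, where VC+ replicates 1 and 2 were above all 4 VC- arrays. Whether this probe set covers the deleted part is not given in the sources used here, so it does not check the genotype labels.

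Few of the transporters passed the test, and those that did fell during colitis. Of the 9 members among the 9097 more variable genes tested, Slc26a3 and Cftr fell in VC- mice between day 0 and day 7, where 10.6% of all genes were called and 5.06% fell. In VC+ mice Slc34a2 fell over the same interval, where 1.75% of all genes were called and 0.429% fell, and Scnn1a fell between day 2 and day 7, where 7.58% were called and 2.83% fell. No member was called between day 0 and day 2 in VC+ mice (background 0.055%) or VC- mice (background 0.011%), or between day 2 and day 7 in VC- mice (background 5.61%). Likewise, none was called between VC+ and VC- mice at day 0 (0.011%), day 2 (0.044%) or day 7 (0%), or in the difference of the genotypes' responses at day 2 (0.022%) or day 7 (0%). At an unadjusted p under 0.05 limma had 1291 of 9097 genes between the genotypes at day 7 and 771 for the difference of responses, with 1 member each, Slc12a2 and Slc26a3. At that level it had Slc26a3 and Slc12a2 for VC+ day 2 and for the genotypes at day 0, Slc26a3 and Atp12a for the difference of responses at day 2, Slc9a3 for VC- day 2, Atp12a for the genotypes at day 2, and 0 members for VC- day 7 against day 2. For VC- day 7 against day 0, 5 members were under that level: Slc26a3, Slc9a3, Scnn1a, Slc34a2 and Cftr. In VC+ mice there were 2 for day 7 against day 0, Slc9a3 and Slc34a2. For VC+ day 7 against day 2 there were 5: Slc26a3, Slc9a3, Scnn1a, Atp12a and Slc34a2. Outside the 2 comparisons with a count over all genes, that count is not given here, so these lists are a description only. All calls are from limma with Benjamini-Hochberg adjustment over all genes tested and a threshold of 0.05. With 9 members, 1 call more or less moves their share by more than the background share of any of these comparisons. Markers of leukocytes were higher at day 7 than at day 0. Of 14 macrophage and monocyte genes tested, 4 rose in VC+ and 11 in VC- mice, where 1.32% and 5.53% of all genes rose, and their mean was 8.62 to 10.19 in VC+ arrays of day 7, against 7.14 to 7.42 in VC+ arrays of day 0. In VC- arrays that mean was 8.04 to 10.45 at day 7, against 7.29 to 7.47 at day 0. Of 8 neutrophil genes on the array 3 were tested and 2 rose in each genotype, S100a8 and S100a9. The mean of all 8 was 5.05 to 7.95 in VC+ arrays of day 7, against 3.06 to 3.13 at day 0, and 4.54 to 9.47 in VC- arrays of day 7, against 3.06 to 3.08 at day 0. The highest VC- means, 10.45 for macrophage and monocyte genes and 9.47 for neutrophil genes, were both on VC- day 7 replicate 2. The part of these cells in the differences was not tested. In homogenized tissue, fewer cells of a type and less RNA per cell cannot be told apart.

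**Figure D1:**
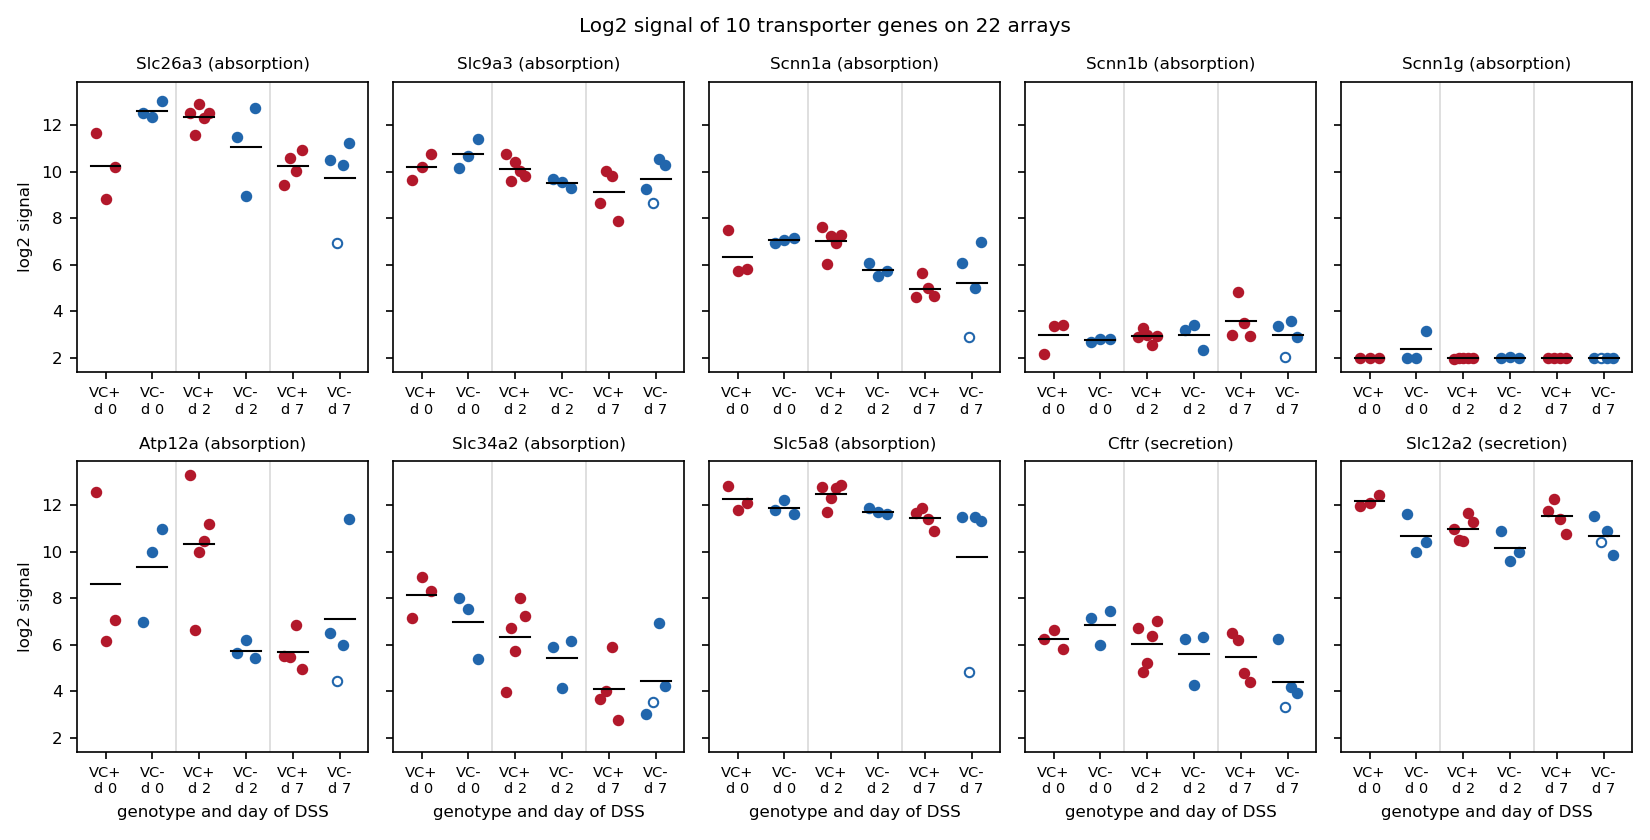
Log2 signal of each of the 10 genes (vertical axis) by genotype and day of DSS (horizontal axis), with 1 point per array and a bar at the group mean, VC+ in red and VC- in blue. The open circle is VC- day 7 replicate 2, which lies far below its group for Slc5a8 (4.84) and lowest of all arrays for Slc26a3 (6.95), Scnn1a (2.88) and Cftr (3.33).

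Slc26a3, the chloride/bicarbonate exchanger of surface colonocytes, was the absorptive gene that fell in VC- mice. Its log2 signal in VC+ mice was 11.65, 8.83 and 10.20 at day 0, 12.54, 11.56, 12.92, 12.31 and 12.51 at day 2, and 9.45, 10.57, 10.05 and 10.94 at day 7. VC- mice had 12.51, 12.33 and 13.04 at day 0, 11.49, 8.96 and 12.75 at day 2, and 10.51, 6.95, 10.30 and 11.21 at day 7. The VC- arrays of day 7 thus lay below all VC- arrays of day 0, as for 12.3% of all genes tested. The VC+ arrays of day 7 lay within the span of VC+ day 0 and below every VC+ array of day 2, as for 6.28% of all genes tested. The mean in VC- mice was 9.74 ± 1.90 at day 7 (SD, n = 4) and 12.63 ± 0.37 at day 0 (SD, n = 3), a log2 difference of -2.88 (standard error 0.89, limma adjusted p = 0.045) or a signal 7.38-fold lower. In VC+ mice the corresponding log2 difference was 0.02, with a 95% interval of -1.83 to 1.88. The response was higher by 2.91 in VC+ than in VC- mice (interval 0.28 to 5.53), which did not pass the limma test over all genes (adjusted p = 0.58). Before DSS the 3 VC+ arrays all lay below the 3 VC- arrays, with a log2 difference of -2.40 (limma adjusted p = 0.666), and 10.6% of all genes tested had such a separation in that direction. At day 2 of DSS the VC+ mean was 2.14 above that of day 0 (interval 0.37 to 3.91, limma adjusted p = 0.638) while the log2 difference in VC- mice was -1.56 (interval -3.54 to 0.42, limma adjusted p = 1).

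The call of Slc26a3 in VC- mice was a narrow one. Without VC- day 7 replicate 2 the log2 difference was -1.95 (limma adjusted p = 0.12). The call was also lost without replicate 1, 2 or 3 of VC- day 0, replicate 3 of VC- day 7, replicate 1 of VC- day 2, replicate 3 of VC+ day 0, replicate 1, 3, 4 or 5 of VC+ day 2, or replicate 1, 2 or 3 of VC+ day 7, with limma adjusted p of 0.0502 to 0.158 and log2 differences of -3.07 to -2.68. The VC+ arrays and VC- day 2 replicate 1 enter only through the shared estimate of spread. Without all 3 arrays with Prss2 signal the difference was -1.75 (limma adjusted p = 0.303). With the signal of Hoxb13, a homeobox gene taken up further on, as a covariate, the call was lost too. Hoxb13 was 7.29 to 9.67 on VC- arrays of day 0 and 2.86 to 9.62 on those of day 7. For these groups the day and Hoxb13 cannot be fully told apart. Of the other probe sets of Slc26a3, both that were bright on every array followed the main one (r = 0.991 and 0.986 over 22 arrays), with day 7 differences in VC- mice of -2.22 and -1.89. The fourth, which lay between 2.29 and 5.42, gave -1.25.

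Slc9a3 encodes NHE3, the sodium/proton exchanger that works beside Slc26a3 in sodium chloride absorption. It passed no test. In VC+ mice it was 9.63 to 10.77 at day 0, 9.58 to 10.75 at day 2 and 7.90 to 10.04 at day 7, and in VC- mice 10.16 to 11.42, 9.29 to 9.69 and 8.67 to 10.54. The log2 difference of day 7 from day 0 was -1.09 in VC+ mice (interval -2.15 to -0.03, limma adjusted p = 0.349) and -1.07 in VC- mice (interval -2.13 to -0.01, limma adjusted p = 0.153), and neither passed the test. All 3 VC- arrays of day 2 lay below the 3 of day 0, and the same held for Scnn1a and Atp12a, so for 3 of 9 members, and for 6.61% of all genes tested. A second probe set stayed between 2.15 and 2.26 on all arrays, and nothing about the gene can be read from it.

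The epithelial sodium channel is built from an alpha, a beta and a gamma subunit, and aldosterone raises its activity in the distal colon. The alpha subunit, Scnn1a, was the subunit with a clear signal, and it fell between day 2 and day 7 in VC+ mice. Scnn1a was 7.49, 5.72 and 5.81 at day 0, 7.64, 6.05, 7.22, 6.95 and 7.27 at day 2, and 4.64, 5.63, 5.00 and 4.64 at day 7 in VC+ mice. In VC- mice it was 6.93, 7.07 and 7.16, then 6.06, 5.52 and 5.75, and then 6.07, 2.88, 5.00 and 6.99 at the same days. Every VC+ array of day 7 lay below every VC+ array of days 0 and 2 (8.61% and 6.28% of all genes tested did so), whereas VC- day 7 reached into the range of day 0. The VC+ mean was 4.98 ± 0.47 at day 7 (SD, n = 4) and 7.02 ± 0.60 at day 2 (SD, n = 5), a log2 difference of -2.05 (standard error 0.58, limma adjusted p = 0.038). Against day 0 the difference was -1.36 in VC+ mice (limma adjusted p = 0.374) and -1.82 in VC- mice (limma adjusted p = 0.076). With the signal of Hoxb13, a homeobox gene taken up further on, as a covariate, the day 7 against day 2 difference in VC+ mice was -1.01 (limma adjusted p = 0.31). The call was lost without replicate 1, 3, 4 or 5 of VC+ day 2 or replicate 1, 2 or 4 of VC+ day 7, with limma adjusted p of 0.0557 to 0.117 and differences of -2.26 to -1.89. It remained without the 3 arrays with Prss2 signal (-1.93, limma adjusted p = 0.0251). Smooth muscle genes moved over the same days, as 8 of 9 tested fell in VC+ mice between day 2 and day 7, where 2.83% of all genes fell. The smooth muscle mean was 8.77 to 10.02 on the VC+ arrays of day 7, against 10.50 to 11.40 on those of day 2. Its part in the fall of Scnn1a was not tested.

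Without VC- day 7 replicate 2 in the shared fit, 4 members fell between day 2 and day 7 in VC+ mice, where 13.7% of all genes were called and 5.72% fell. These were Slc26a3 (-2.12, limma adjusted p = 0.0287), Scnn1a (-2.05, limma adjusted p = 0.00462), Atp12a (-4.62, limma adjusted p = 0.0344) and Slc5a8 (-1.03, limma adjusted p = 0.0152). Their differences are those of the full fit, where all but Scnn1a missed the threshold, since the array left out belongs to the other genotype.

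The beta and gamma subunits were at or near background. Scnn1b ranged from 2.05 to 4.85, with the highest value on VC+ day 7 replicate 2, and the largest log2 difference tested was 0.63, of VC+ day 7 from VC+ day 2. Scnn1g stayed between 1.97 and 2.02 in every group except VC- day 0, where it was 2.01, 1.99 and 3.15. It was too flat to be tested, and nothing can be read from it about the channel's gamma subunit.

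Atp12a, the non-gastric proton/potassium pump with which the distal colon recovers potassium, had the widest range of the members, 4.43 to 13.31. In VC+ mice it was 12.55, 6.17 and 7.05 at day 0, 13.31, 6.64, 9.97, 10.45 and 11.19 at day 2, and 5.51, 5.47, 6.85 and 4.95 at day 7. VC- mice had 6.99, 9.99 and 10.98 at day 0, 5.64, 6.19 and 5.41 at day 2, and 6.52, 4.43, 5.97 and 11.41 at day 7. High and low arrays occurred together in VC+ day 0, VC+ day 2, VC- day 0 and VC- day 7. The groups with low arrays only were VC- day 2 and VC+ day 7. No comparison between groups passed the test. The largest difference, VC+ day 7 against VC+ day 2, was -4.62 (standard error 1.43, limma adjusted p = 0.055), and VC+ minus VC- at day 2 was 4.57 (limma adjusted p = 0.271), with no overlap between the genotypes, as for 3.72% of all genes tested.

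The spread of Atp12a followed Hoxb13, a homeobox gene active in the most distal gut. Hoxb13 was 12.42, 3.09 and 2.88 at day 0, 12.42, 3.07, 9.45, 10.44 and 11.19 at day 2, and 3.10, 3.31, 3.07 and 6.88 at day 7 in VC+ mice. In VC- mice it was 7.29, 9.13 and 9.67, then 3.08, 2.95 and 2.88, and then 3.81, 2.86, 3.03 and 9.62. Every array with Hoxb13 above 9 had Atp12a at 9.97 or more, and every array with Hoxb13 under 7 had it at 7.05 or less. Within the 6 groups, Atp12a was 0.65 higher on the log2 scale for each unit of Hoxb13 (standard error 0.08, limma adjusted p = 0.000306). This slope passed the test whichever array was left out (limma adjusted p at most 0.0145, without VC+ day 0 replicate 1), in a test added after these values were seen. Of 9096 genes, 1.43% had a slope that passed and 0.627% a positive one. Scnn1a had a slope of 0.20 (limma adjusted p = 0.0777) and Slc26a3 one of 0.21 (limma adjusted p = 0.311), while Slc9a3 (0.00) and Cftr (0.04) had slopes near 0. Without the 3 arrays with Prss2 signal, 1.43% of all genes had a positive slope that passed, Scnn1a (0.19, limma adjusted p = 0.00118) and Slc5a8 (0.09, limma adjusted p = 0.0401) among them. Given Hoxb13 as a covariate, the difference of Atp12a of VC+ from VC- mice at day 2 was 0.45 (standard error 0.94), and that of VC- day 2 from day 0 was 0.14, against -3.57 without it. In VC- mice Hoxb13 was at 7.29 or more on every array of day 0 and at 3.08 or less on every array of day 2, so for those groups the day and this gene cannot be told apart.

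**Figure D2:**
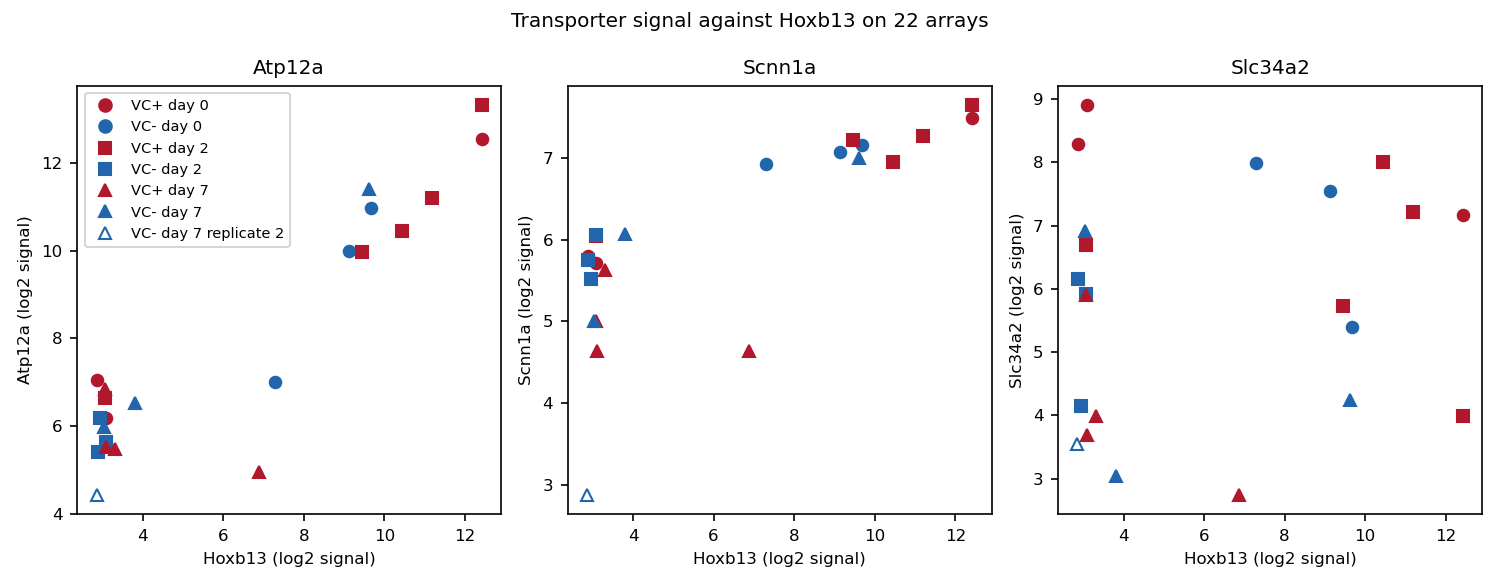
Log2 signal of Atp12a, Scnn1a and Slc34a2 (vertical axes) against that of Hoxb13 (horizontal axis), 1 point per array, with colors for genotype, shapes for day, and VC- day 7 replicate 2 open. Atp12a and Scnn1a are high where Hoxb13 is above 9, and Slc34a2 shows no such order (slope -0.16, limma adjusted p = 0.689).

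Slc34a2, the sodium/phosphate cotransporter best known from small intestine and lung, fell in VC+ mice by the largest amount of the 4 calls between days. It was 7.16, 8.90 and 8.29 at day 0, 3.98, 6.70, 5.73, 8.0035 and 7.21 at day 2, and 3.68, 4.00, 5.90 and 2.75 at day 7 in VC+ mice. VC- mice had 7.996, 7.55 and 5.39 at day 0, 5.92, 4.15 and 6.15 at day 2, and 3.04, 3.54, 6.92 and 4.24 at day 7. The VC+ arrays of day 7 lay below all those of day 0, as for 8.61% of all genes tested, and the VC- arrays overlapped through VC- day 7 replicate 3. The VC+ mean was 4.08 ± 1.32 at day 7 (SD, n = 4) and 8.12 ± 0.88 at day 0 (SD, n = 3), a log2 difference of -4.03 (standard error 1.00, limma adjusted p = 0.046) or a signal 16.4-fold lower. In VC- mice the difference was -2.54 (interval -4.63 to -0.45, limma adjusted p = 0.095). The genotypes' responses differed by -1.49 (interval -4.45 to 1.47, limma adjusted p = 0.729), so a fall of VC+ mice alone was not shown. Markers of the small intestine, with 10 of 12 listed genes on the array, averaged 5.14 to 7.31 on VC+ day 7 arrays and 5.00 to 7.86 on VC+ day 0 arrays, and their part in the result was not tested.

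Leaving out single arrays ended the call of Slc34a2 in 14 of 22 cases. These were replicate 1, 2 or 3 of VC+ day 0, replicate 2, 3 or 5 of VC+ day 2, replicate 1, 2 or 4 of VC+ day 7, replicate 1 or 2 of VC- day 0, replicate 1 or 3 of VC- day 2 and replicate 4 of VC- day 7. The limma adjusted p was then 0.0542 to 0.199, with differences of -4.51 to -3.59. With Hoxb13 as a covariate the call remained (-4.36, limma adjusted p = 0.0269). Without the 3 arrays with Prss2 signal the difference was -3.59 (limma adjusted p = 0.094).

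Slc5a8, the sodium-coupled transporter that takes up butyrate and other short-chain fatty acids, lay between 10.88 and 12.87 on all arrays but 1. It was 11.80 to 12.83, 11.71 to 12.87 and 10.88 to 11.86 in VC+ mice at days 0, 2 and 7, and 11.61 to 12.21 and 11.59 to 11.86 in VC- mice at days 0 and 2. At day 7 the VC- arrays had 11.48, 4.84, 11.48 and 11.30. Of the 22 arrays, only VC- day 7 replicate 2, the array with low epithelial genes, was below 10. All 4 VC- arrays of day 7 lay below those of day 0, and 2 members were separated so, Slc5a8 and Slc26a3, as were 12.3% of all genes tested. The log2 difference of VC- day 7 from day 0 was -2.10 with that array (limma adjusted p = 0.17) and -0.46 without it (limma adjusted p = 0.368). In VC+ mice the difference was -0.78 (limma adjusted p = 0.818).

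**Figure D3:**
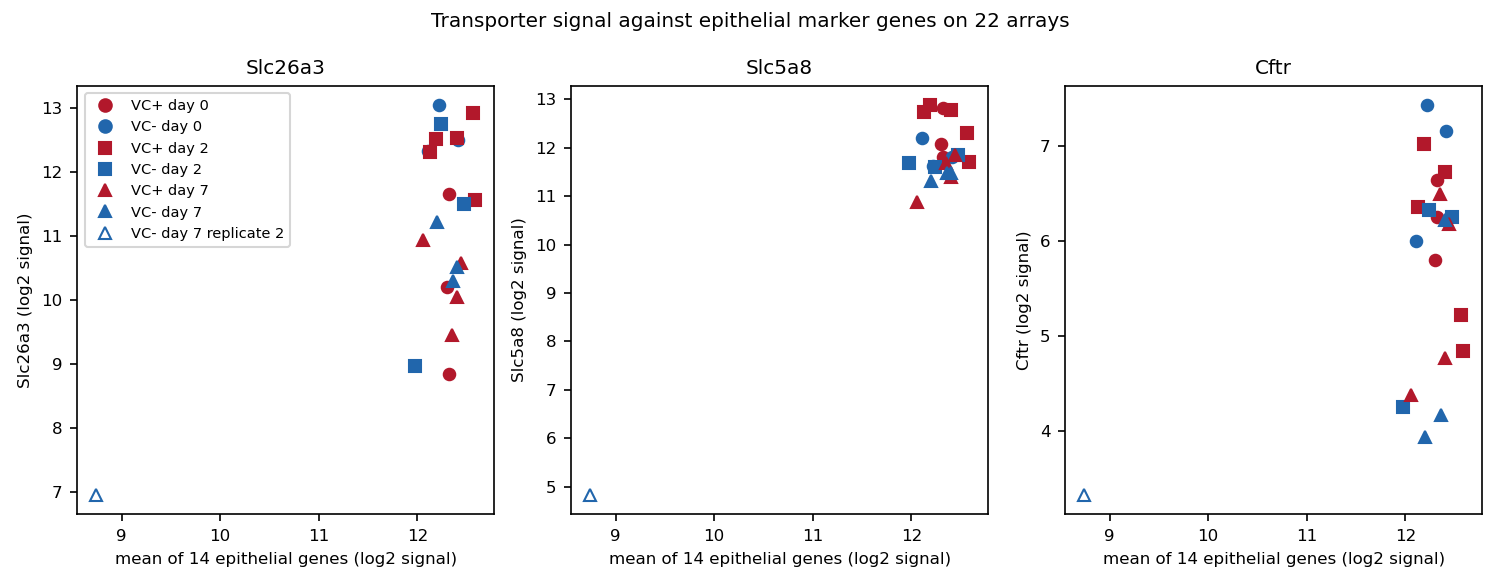
Log2 signal of Slc26a3, Slc5a8 and Cftr (vertical axes) against the mean log2 signal of 14 epithelial genes (horizontal axis), 1 point per array, with colors for genotype, shapes for day, and VC- day 7 replicate 2 open. That array has an epithelial mean of 8.74 and Slc5a8 at 4.84, while on the other 21 arrays the epithelial mean lies between 11.97 and 12.58 and Slc26a3 and Cftr still range widely.

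On the secretory side, Cftr fell in VC- mice and Slc12a2 passed no test. Cftr is the chloride channel of crypt cells that cyclic AMP opens. Its main probe set had 6.26, 6.64 and 5.80 at day 0, 6.72, 4.84, 5.22, 6.36 and 7.02 at day 2, and 6.49, 6.18, 4.77 and 4.38 at day 7 in VC+ mice. In VC- mice it had 7.16, 6.00 and 7.43, then 6.25, 4.25 and 6.33, and then 6.22, 3.33, 4.17 and 3.93. Day 7 of VC- mice overlapped day 0 through replicate 1 only. The VC- mean was 4.41 ± 1.26 at day 7 (SD, n = 4) and 6.86 ± 0.76 at day 0 (SD, n = 3), a log2 difference of -2.45 (standard error 0.71, limma adjusted p = 0.038) or a signal 5.46-fold lower. In VC+ mice the difference was -0.78 (interval -2.27 to 0.72, limma adjusted p = 0.703), and the responses differed by 1.67 (interval -0.44 to 3.78, limma adjusted p = 0.624). Without VC- day 7 replicate 2 the VC- difference was -2.09 (limma adjusted p = 0.0988), and without all 3 arrays with Prss2 signal it was -1.81 (limma adjusted p = 0.269). The call was also lost without replicate 1, 2 or 3 of VC- day 0 or replicate 3 or 4 of VC- day 7, with limma adjusted p of 0.0594 to 0.155 and differences of -2.88 to -2.17. With Hoxb13 as a covariate Cftr was not called either. Of 5 crypt base genes tested, Ascl2, Axin2 and Ephb3 fell between day 0 and day 7 in both genotypes, where 0.429% of all genes fell in VC+ and 5.06% in VC- mice. The mean of all 6 on the array was 3.86 to 5.58 on VC- arrays of day 7, against 4.99 to 5.34 on those of day 0, and 4.06 to 5.18 on VC+ arrays of day 7, against 5.33 to 5.48 on those of day 0. The value of 5.58 was that of VC- day 7 replicate 2, the array with low epithelial genes. The part of the crypt base genes in the fall of Cftr was not tested.

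The second probe set of Cftr differed from the first on single arrays. It had 11.12, 11.72, 11.02 and 9.79 in VC+ mice and 11.26, 4.02, 10.56 and 10.04 in VC- mice at day 7, and 11.38 to 11.66 in VC+ mice and 11.39 to 11.56 in VC- mice at day 0. VC- day 7 replicate 2 lay far below the other 3 arrays of its group. The day 7 difference in VC- mice was -2.52 with that array and -0.87 without it, against -2.45 and -2.09 for the main probe set. The probe sets correlated with r = 0.63 over the 22 arrays.

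Slc12a2, the sodium-potassium-chloride cotransporter that loads crypt cells with chloride, was 11.95, 12.08 and 12.44 at day 0, 10.99, 10.48, 10.44, 11.64 and 11.26 at day 2, and 11.75, 12.27, 11.40 and 10.76 at day 7 in VC+ mice. VC- mice had 11.63, 9.99 and 10.42, then 10.88, 9.61 and 9.98, and then 11.52, 10.40, 10.87 and 9.84. The VC+ arrays of day 0 were above all those of VC- day 0 and of VC+ day 2. The difference of VC+ day 2 from day 0, -1.19, had a limma adjusted p of 0.584, and 6.27% of all genes tested were separated in that direction. The log2 difference of VC+ from VC- at day 0 was 1.48 (interval 0.46 to 2.49, limma adjusted p = 0.622), and such a separation upward was found in 9.66% of all genes tested. At days 2 and 7 the difference of VC+ from VC- was 0.80 (interval -0.11 to 1.72) and 0.89 (interval 0.00 to 1.77), with limma adjusted p of 0.466 and 0.35. Between day 7 and day 0 it differed by -0.61 in VC+ mice (interval -1.57 to 0.34) and by -0.02 in VC- mice (interval -0.98 to 0.93). The other probe sets gave day 0 differences between genotypes of 0.93 and 0.50. In the same order, their differences of day 7 from day 0 were -0.55 and -0.61 in VC- mice and -0.65 and -0.61 in VC+ mice. The value near 0 in VC- mice was thus that of the main probe set only.

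**Figure D4:**
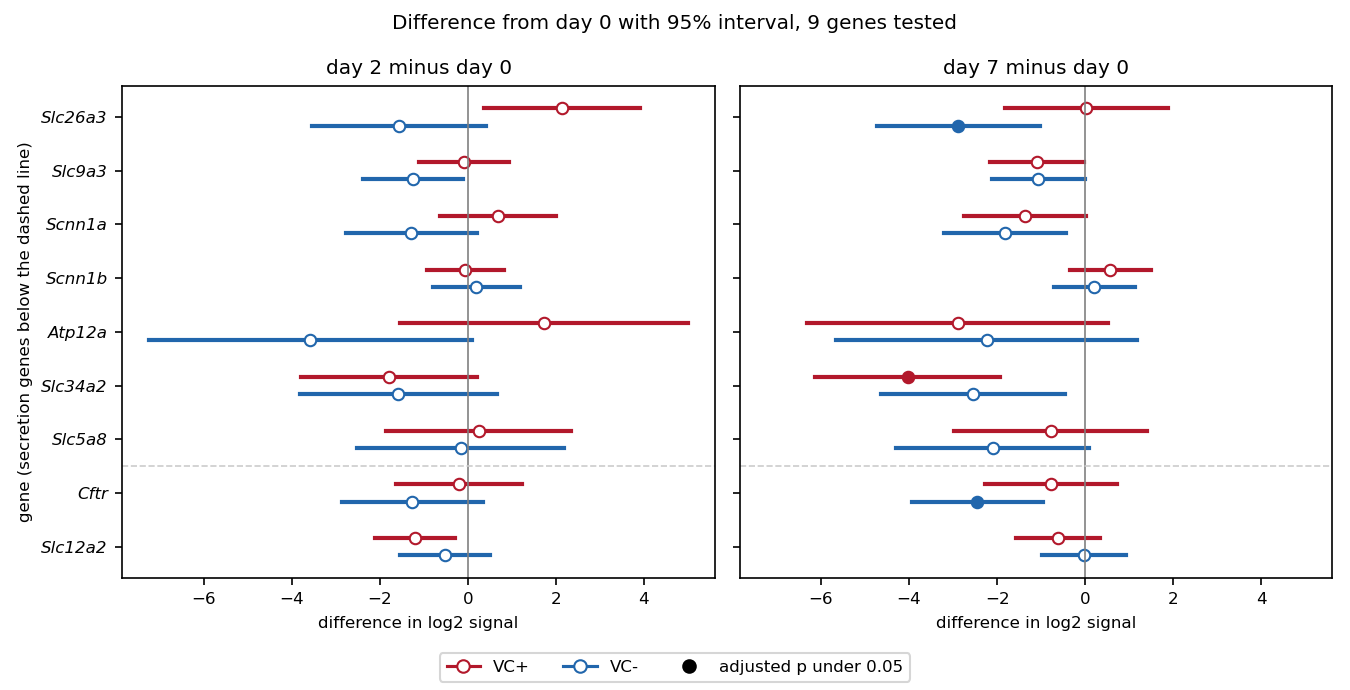
Difference in log2 signal of day 2 (left) and day 7 (right) from day 0 for the 9 genes tested, with 95% intervals, VC+ in red above VC- in blue; filled points passed the limma test at an adjusted p of 0.05. At day 7 these are Slc34a2 in VC+ mice (-4.03) and Slc26a3 (-2.88) and Cftr (-2.45) in VC- mice.

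Absorption was set against secretion by averaging, on each array, the 8 absorptive and the 2 secretory genes relative to their means over the 22 arrays. No p-value is given for these averages, as the members were chosen with results known. The absorptive average was 0.42 ± 0.54, 0.77 ± 0.44 and -0.78 ± 0.49 in VC+ mice (SD, n = 3, 5 and 4) and 0.80 ± 0.30, -0.40 ± 0.30 and -0.80 ± 1.36 in VC- mice (SD, n = 3, 3 and 4) at days 0, 2 and 7. The day 7 arrays of VC+ mice, at -1.30 to -0.36, lay below all of days 0 and 2, which were at -0.05 to 1.07. The VC- arrays of day 7 were at -0.64, -2.75, -0.20 and 0.37. The lowest of them was replicate 2, the array with low epithelial genes, so the VC- mean of day 7 leans on it. The secretory average was 0.82 ± 0.15, 0.13 ± 0.70 and 0.13 ± 0.81 in VC+ mice and 0.40 ± 0.71, -0.49 ± 0.85 and -0.84 ± 0.94 in VC- mice at the same days. Absorption minus secretion was -0.41 ± 0.66, 0.65 ± 0.42 and -0.91 ± 0.79 in VC+ mice and 0.40 ± 0.92, 0.09 ± 0.56 and 0.03 ± 1.496 in VC- mice. In VC+ mice the balance was highest at day 2 (0.28 to 1.31 on single arrays) and lowest at day 7 (-1.85 to -0.07), with no overlap between the 2 days. In VC- mice single arrays of day 7 ran from -1.24 to 1.86 and spanned those of days 0 and 2. Without Slc34a2 and Atp12a the day 7 balance of VC+ mice minus that of day 0 was 0.26, against -0.50 with them, so its direction rests on these genes. Without Scnn1b and Scnn1g, which lay near background, that difference was -0.99, and the corresponding one of VC- mice was -0.87, against -0.37 with them, a choice made after these values were seen. Hoxb13 was at 9.45 or more on 4 of 5 VC+ arrays of day 2 and at 6.88 or less on all 4 of day 7, and its part in the balance was not tested.

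**Figure D5:**
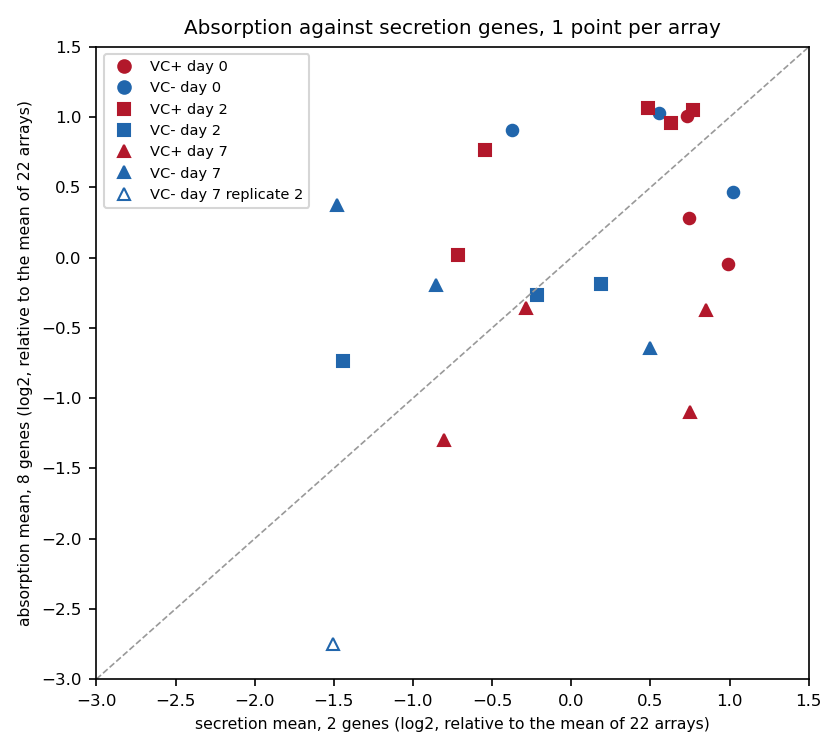
Mean of the 8 absorptive genes (vertical axis) against the mean of the 2 secretory genes (horizontal axis), both log2 relative to the mean of 22 arrays, 1 point per array, with colors for genotype, shapes for day, and VC- day 7 replicate 2 open. The dashed line marks equality; the 5 VC+ arrays of day 2 lie above it and the 4 VC+ arrays of day 7 below it.

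Among themselves the absorptive genes were correlated to different degrees. Over the 22 arrays, Scnn1a correlated with Atp12a at r = 0.84 (0.78 within groups), with Slc26a3 at 0.83 and with Slc5a8 at 0.76, while Slc34a2 correlated with these 4 at 0.21 to 0.39. Slc9a3 correlated with Scnn1a at 0.63 and with Slc26a3 at 0.44. Cftr and Slc12a2 correlated at 0.46, and at 0.71 within groups. The points share VC- day 7 replicate 2 and the other arrays with Prss2 signal. Without those 3 arrays the values were 0.87 for Scnn1a with Atp12a, 0.75 with Slc26a3 and 0.54 for Cftr with Slc12a2. Outside the members, the genes most like them over the 22 arrays were Ggh (0.97) and Unc119 (0.93) for Atp12a, Ppp1r3b (0.94) and Foxa2 (0.93) for Scnn1a, Ahcyl2 (0.88) and Klf4 (0.85) for Slc26a3, and Styk1 (0.98) and Ern2 (0.98) for Slc5a8. For Slc34a2 they were Ckm (0.85) and Selenom (0.83), for Cftr Galk2 and Sfxn2 (both 0.90), for Slc12a2 Efcab14 (0.87) and Zkscan1 (0.85), for Slc9a3 Rhbdd1 (0.75) and Pdzk1ip1 (0.74), and for Scnn1b Slc5a9 (0.81) and Nckap5 (0.79). Each pair is the best of 9088 genes compared, so the size of these correlations is in part a product of the search.

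Other transporters and pumps of absorption, a list of 20 genes with 13 tested, were not called against day 0 in either genotype. Of all genes tested, 1.75% in VC+ and 10.6% in VC- mice were called at day 7, and 0.055% and 0.011% at day 2. The median log2 difference of the list at day 7 was -0.44 in VC+ mice and -0.60 in VC- mice, against -0.02 and -0.09 over all genes tested. Slc7a5, an amino acid transporter, rose in VC+ mice between day 2 and day 7 (1.20, limma adjusted p = 0.0162), where 4.76% of all genes rose, in a list whose median there was -0.40. With Hoxb13 as a covariate it did not pass (limma adjusted p = 0.0861).

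Of 16 tested regulators of sodium absorption, Nedd4l rose in both genotypes between day 0 and day 7, where 1.32% of all genes rose in VC+ and 5.53% in VC- mice. Nedd4l is a ubiquitin ligase that removes the epithelial sodium channel from the membrane. Its log2 signal was 8.37 ± 0.69 at day 7 (SD, n = 4) and 7.01 ± 0.28 at day 0 (SD, n = 3) in VC+ mice, a difference of 1.36 (limma adjusted p = 0.0259). In VC- mice it was 9.03 ± 0.36 at day 7 (SD, n = 4) and 6.85 ± 0.24 at day 0 (SD, n = 3), a difference of 2.18 (limma adjusted p = 0.000521) that passed whichever array was left out. In VC+ mice the call was lost without replicate 1, 2 or 3 of VC+ day 0 or replicate 3 or 4 of VC+ day 7 (limma adjusted p up to 0.118), or without all arrays with Prss2 signal (1.09, limma adjusted p = 0.0562). Wnk1, a kinase that regulates salt transport, rose in VC- mice (1.93, limma adjusted p = 0.032), but not without replicate 2 or 3 of VC- day 0 or replicate 2 or 3 of VC- day 7 (limma adjusted p up to 0.144), nor without all arrays with Prss2 signal (1.45, limma adjusted p = 0.244). The median of the list was -0.25 in VC+ mice and -0.57 in VC- mice. Between day 2 and day 7, 1 gene of the list rose and 1 fell in VC+ mice, where 4.76% and 2.83% of all genes did so, and 2 rose and 1 fell in VC- mice, where 3.45% and 2.15% did so. Tsc22d3, a glucocorticoid-induced gene, fell in VC+ mice (-1.31, limma adjusted p = 0.0266), a call lost without replicate 1, 3 or 5 of VC+ day 2 or replicate 1, 2 or 4 of VC+ day 7 (limma adjusted p up to 0.11) and with Hoxb13 as a covariate (limma adjusted p = 0.116). Nr3c1, the glucocorticoid receptor, fell in VC- mice (-1.45, limma adjusted p = 0.0263), a call lost without replicate 2 or 3 of VC- day 2 or replicate 2 or 4 of VC- day 7 (limma adjusted p up to 0.111), or without all arrays with Prss2 signal (limma adjusted p = 0.0552). Nedd4l rose over these days too, by 1.27 in VC+ mice (limma adjusted p = 0.0102, and 0.0566 with Hoxb13 as a covariate), and by 1.22 in VC- mice (limma adjusted p = 0.0312), the VC- call being lost without replicate 2 or 3 of VC- day 2 or replicate 2, 3 or 4 of VC- day 7 (limma adjusted p up to 0.137). Wnk1 rose by 2.23 in VC- mice over these days (limma adjusted p = 0.0241), a call lost without replicate 2 or 3 of VC- day 2 or replicate 2 of VC- day 7 (limma adjusted p up to 0.134), or without all arrays with Prss2 signal (limma adjusted p = 0.0535).

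Among 15 tested channels, transporters and receptors of secretion, none was called at day 7 against day 0 in VC+ mice and 4 fell in VC- mice, where 0.429% and 5.06% of all genes fell. Kcnn4 and Kcne3, which serve the basolateral potassium exit that drives chloride secretion, differed by -3.44 (limma adjusted p = 0.0101) and -3.26 (limma adjusted p = 0.0343) in VC- mice. Without VC- day 7 replicate 2 these were -2.59 (limma adjusted p = 0.0147) for Kcnn4 and -1.997 (limma adjusted p = 0.0366) for Kcne3. Kcnn4 was lost without VC- day 0 replicate 3 (limma adjusted p = 0.0668), and Kcne3 without replicate 1, 2 or 3 of VC- day 0 or replicate 3 of VC- day 7 (limma adjusted p up to 0.109). Ptger4, a prostaglandin E2 receptor, had 7.11 ± 0.37 at day 7 (SD, n = 4) and 8.63 ± 0.32 at day 0 (SD, n = 3), a difference of -1.52 (limma adjusted p = 0.00359) that passed whichever array was left out. Ano1, a calcium-gated chloride channel, differed by -1.37 (limma adjusted p = 0.0429), a call lost without any 1 of 10 arrays: replicates 3 and 4 of VC+ day 2, replicate 2 of VC+ day 7, replicates 1, 2 and 3 of VC- day 0, replicate 3 of VC- day 2, and replicates 2, 3 and 4 of VC- day 7 (limma adjusted p up to 0.143). Without the 3 arrays with Prss2 signal none of the 4 passed, with limma adjusted p of 0.0559 for Ptger4, 0.0625 for Kcnn4, 0.0633 for Kcne3 and 0.191 for Ano1. With Hoxb13 as a covariate Kcne3 (limma adjusted p = 0.0814) and Ano1 (limma adjusted p = 0.103) did not pass. The median of the list was -0.68 in VC+ mice and -0.93 in VC- mice. Between day 2 and day 7 of VC+ mice, Clca1, a secreted goblet cell protein (-5.50, limma adjusted p = 0.00803), the anion channel Best2 (-3.08, limma adjusted p = 0.0424) and Ano1 (-1.76, limma adjusted p = 0.00928) fell, where 2.83% of all genes fell. The part of the smooth muscle genes, which fell over these days, was not tested. The calls of Clca1 and Ano1 held whichever array was left out, and that of Best2 was lost without any 1 of 10 arrays (replicate 3 of VC+ day 0, replicates 1, 3, 4 and 5 of VC+ day 2, replicates 1, 2 and 4 of VC+ day 7, replicate 2 of VC- day 0 and replicate 3 of VC- day 2), with limma adjusted p up to 0.128, and without all arrays with Prss2 signal (limma adjusted p = 0.0582). With Hoxb13 as a covariate none of these 3 passed, with limma adjusted p of 0.064 for Clca1, 0.354 for Best2 and 0.0703 for Ano1. Kcnn4 alone of the list fell between these days in VC- mice, where 2.15% of all genes fell (-3.20, limma adjusted p = 0.0212), a call lost without VC- day 2 replicate 2 or 3 (limma adjusted p up to 0.109).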

How the data were processed

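Total RNA of homogenized colonic tissue was hybridized to 22 Mouse Genome 430 2.0 arrays. Per the labels and methods, the authors processed the scans with GC-RMA in R 2.10.1 and deposited log2 values, with no further filter, for 45101 probe sets. Package versions of GC-RMA are not given in the sources used here. Of these probe sets, 34958 named a single gene in GEO's platform annotation, and each of 18194 genes was given by its probe set with the largest interquartile range. The upper 50% of genes by interquartile range (9097) was tested with limma 3.58.1 in R 4.3.3, in 1 fit of the 6 group means over all 22 arrays, with two-sided p-values adjusted by Benjamini-Hochberg for each comparison on its own. GC-RMA draws dim probe sets toward a common floor, so differences of genes near background are understated. Precision is limited by how many arrays there are. The 22 arrays correlated at 0.904 to 0.996, and none were identical. Named genes were all 10 members, the members of the transport lists that passed the test, and the 2 genes most like each member. The fit was tested on simulated data. The members and lists were chosen with earlier results of these data known. Alternatives were other filters, probe sets, models and covariates, and leaving out each array.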

Additional observations from a re-analysis of the deposited data

Results flagged for a closer look

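In 33 groups of 4 or 5 arrays, 2 members had an array far from the rest of its group, and chance alone flags about 1 in 20 groups. Slc5a8, the short-chain fatty acid transporter, was 4.84 on VC- day 7 replicate 2 and 11.30 to 11.48 on the other 3 VC- arrays of day 7. The same array had the lowest mean of epithelial genes, 8.74, and the lowest value of 6 of the 10 members. Scnn1g was 2.01 on VC+ day 7 replicate 1 and 1.98 to 1.99 on the other 3 VC+ arrays of day 7, all at background.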

How the results depend on the processing

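The calls of members lay close to the threshold, and no named value turned its direction while called. Of 1386 values of single members under other settings, 1336 kept their side of the threshold, 30 lost a call and 20 gained one. Leaving out single arrays left 2128 of 2178 on their side, with 41 lost and 9 gained. Most of these values had no call to lose, so the shares kept do not tell how stable the calls were. Of 22 arrays left out in turn, 14 ended the call of Slc26a3, 14 that of Slc34a2, 7 that of Scnn1a and 6 that of Cftr. In VC- mice between day 7 and day 0, 2 members were called. The count was 1 with the mean of all probe sets (8.71% of all genes called) or with array quality weights (24.4%). It was 0 with only the groups compared (0.033% of all genes called) or with the epithelial covariate (6.46%). It was also 0 with no filter, with the probe set of highest mean, or with the Hoxb13 or Xist covariate. Without the arrays with Prss2 signal it was 0 too, with or without Hoxb13 as a covariate. Single arrays left out gave 0 to 3. In VC+ mice between day 7 and day 0, 1 member was called. The count was 2 with array weights (Slc9a3 and Slc34a2, with 16.6% of all genes called). It was 0 with the mean of probe sets (1.3%) or with only the groups compared (0.506%). With no filter or with the Xist covariate it was 0 too. The same held without the arrays with Prss2 signal, with or without Hoxb13 as a covariate. Single arrays left out gave 0 to 1. In VC+ mice between day 7 and day 2, 1 member was called. The count was 5 with array weights (29.1% of all genes called), 3 with only the groups compared (728 of 9097 genes) or with the epithelial covariate (14.3%), and 0 with no filter or with the Hoxb13 or Xist covariate, with or without the arrays with Prss2 signal for Hoxb13. Single arrays left out gave 0 to 4. Where a count in this paragraph has no share of all genes beside it, that share is not given here. Such a count is a description only.

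Array quality weights, which give arrays unlike their group less say, also called 5 members in VC+ mice between day 2 and day 0 (14.1% of all genes), 2 between the genotypes at day 0 (Slc26a3 and Slc12a2, 7.54% of all genes), 1 at day 7 (Slc12a2, 17.5%) and 3 in the difference of responses at day 2 (3.74%), where 0 were called without weights. The slope on Hoxb13 passed for 1 member, for 1 to 2 with single arrays left out and for 3 without the arrays with Prss2 signal. The other comparisons stayed at 0 whichever array was left out. The cause of these differences between settings was not tested.

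The balance of absorption and secretion differed by -0.81 for VC+ minus VC- at day 0 (-1.29 to -0.37 with single arrays left out), 0.55 at day 2 (0.32 to 0.86) and -0.94 at day 7 (-1.36 to -0.33). Against day 0 it differed in VC+ mice by 1.05 at day 2 (0.74 to 1.398) and -0.50 at day 7 (-0.81 to -0.16), and in VC- mice by -0.31 at day 2 (-0.79 to 0.14) and -0.37 at day 7 (-0.98 to 0.07).

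With the replicate number as a block, 2 members were called in VC- mice between day 7 and day 0, 0 in VC+ mice between day 7 and day 0 (Slc34a2, limma adjusted p = 0.1) and 0 between day 7 and day 2 (Scnn1a, limma adjusted p = 0.0732), and 0 in every other comparison. The shares of all genes called with this block are not given here, so these counts are a description only. The labels give no meaning to a shared number, and not every same-number pair deviated together. Of 48 same-number pairs, 18 had deviations from the group means that correlated above 0.1, against 36 of 152 other pairs, and 13 of 22 arrays matched their own number best. The mean correlation was 0.084 for same-number pairs and -0.027 for other pairs, so arrays that share a number were somewhat more alike. Signal over background limits Scnn1b and Scnn1g, whose values do not rise clearly above the floor.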
